A study of Homo sapiens with 4 samples.

Results

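Distal accessible regions that stayed open in every library of HepG2 cells were examined. Peaks from the 4 libraries were merged where they overlapped by at least 1 bp, which gave 80551 regions. Regions with a peak in all 4 libraries whose centre lay over 10 kb from every protein-coding gene 5′ end numbered 8952. They made up 11.1% of all merged regions and 54.5% of the 16430 regions called in all 4 libraries. The members were thus selected on having a called peak in each library and on distance to genes, and their presence in all libraries is not a finding. A further 356 regions called in all 4 libraries lay on unplaced contigs or alternate sequences and were left out.

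HepG2 is an established human hepatocellular carcinoma line. Chromatin accessibility was profiled by ATAC-seq, in which a transposase cuts open DNA, with 50000 cells per library. All cells were of the wild-type line. The protocol describes a DNase step before the assay, to remove DNA of dead cells, for tazemetostat-treated cells, and whether the controls received it is not given in the sources used here. The control group held 2 libraries of cells labelled untreated, and the tazemetostat group held 2 libraries of cells given 5 µM of the drug, dissolved in DMSO, for 48 h. Whether these controls received DMSO is not given in the sources used here, although controls of other assays in the study did. No source used here states that replicates came from separate cultures, so every p-value measures only the spread between these libraries. Depth was 17191428 to 26564400 mapped tags and overlapped between the groups. The HepG2 label was checked against hepatocyte markers: 5 of 10 had a peak within 1 kb of the gene 5′ end in all 4 libraries (among them AFP, APOA1, APOB and HNF4A), and TTR, SERPINA1 and FGB had none in any library. ALB had a peak in both tazemetostat libraries and in no control, and FOXA2 only in tazemetostat replicate 2. Of the 5 blood, 3 endothelial and 4 fibroblast or stellate markers, 0 were open in all 4 libraries, although ACTA2 was open in 3 and CD14 in 1.

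Distal open regions hold enhancers, insulators and alternative or noncoding promoters. In liver cells enhancers are bound by factors such as HNF4A, FOXA and CEBP proteins, which drive hepatocyte genes from a distance, whereas CTCF binds insulators that organise loops. Tazemetostat inhibits EZH2, the catalytic subunit of polycomb repressive complex 2, which methylates histone H3 lysine 27 at silenced genes.

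The central 200 bp of 6 members are shown, read from the plus strand of hg38, to make the kinds of sequence concrete. The first 3 are the strongest members without repeated sequence that carried a CTCF, HNF4 or AP-1 match, with the match in capitals. They lay nearest to VEGFA, ZKSCAN1 and ACTR3, respectively.
VEGFA, chr6:43927073-43927272, CTCF match: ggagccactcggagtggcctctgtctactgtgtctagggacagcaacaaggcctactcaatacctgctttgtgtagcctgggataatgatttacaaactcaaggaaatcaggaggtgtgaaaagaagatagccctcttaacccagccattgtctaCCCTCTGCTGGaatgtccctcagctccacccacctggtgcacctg
ZKSCAN1, chr7:100003891-100004090, HNF4 match: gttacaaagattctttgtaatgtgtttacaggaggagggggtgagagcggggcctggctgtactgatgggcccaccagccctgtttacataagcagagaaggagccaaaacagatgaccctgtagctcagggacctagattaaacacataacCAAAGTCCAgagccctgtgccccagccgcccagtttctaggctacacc
ACTR3, chr2:113978007-113978206, AP-1 match: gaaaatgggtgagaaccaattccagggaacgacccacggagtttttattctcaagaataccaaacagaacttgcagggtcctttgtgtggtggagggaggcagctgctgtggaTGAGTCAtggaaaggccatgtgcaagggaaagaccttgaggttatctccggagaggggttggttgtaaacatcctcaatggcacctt

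A further 3 members show a large rise and the special sequence classes. The member nearest to AXIN2 was among the largest rises and has its CEBP match in capitals. In the member nearest to RNF141, capitals mark bases covered by 20-base words of the mitochondrial genome. In the member nearest to the coding gene ENSG00000284209, capitals mark GGAAT, the unit of a satellite repeat.
AXIN2, chr17:65516040-65516239: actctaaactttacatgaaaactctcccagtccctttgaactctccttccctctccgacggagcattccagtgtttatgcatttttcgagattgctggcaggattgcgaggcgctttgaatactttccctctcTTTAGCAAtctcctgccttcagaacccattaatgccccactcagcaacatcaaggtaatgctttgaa
RNF141, chr11:10509407-10509606: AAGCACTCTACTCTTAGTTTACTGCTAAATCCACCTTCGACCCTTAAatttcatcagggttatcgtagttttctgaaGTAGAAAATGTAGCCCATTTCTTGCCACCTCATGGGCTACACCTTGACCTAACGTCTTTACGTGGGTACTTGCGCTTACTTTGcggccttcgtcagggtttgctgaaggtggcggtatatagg
ENSG00000284209, chr16:34583150-34583349: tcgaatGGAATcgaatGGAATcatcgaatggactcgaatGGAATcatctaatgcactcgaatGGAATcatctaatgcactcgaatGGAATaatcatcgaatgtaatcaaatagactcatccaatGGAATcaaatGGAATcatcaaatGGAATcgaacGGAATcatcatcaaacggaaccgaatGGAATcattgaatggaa

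To describe how open the members were, the normalised tag count was used, the tags in a peak per 10 M mapped tags of the library. Its median over the 8952 members was 14.5 in control replicate 1 and 18.1 in control replicate 2. It was 29.7 in tazemetostat replicate 1 and 26.4 in tazemetostat replicate 2. Both tazemetostat libraries thus lay above both controls, with group means of 16.3 ± 2.55 (SD, n = 2) and 28.1 ± 2.33 (SD, n = 2) and p = 0.3333 in the exact permutation test, two-sided, the smallest value that 2 against 2 libraries allow. In tags, the medians were 25, 43, 59 and 70. Under 20 tags lay behind 31.5% of the members in control replicate 1 but only 6.69%, 2.86% and 1.01% in the other libraries, so counting error on single members was largest in control replicate 1.

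Members had fewer tags per peak and narrower peaks than promoters open in all 4 libraries, defined as the 5038 regions within 1 kb of a coding gene 5′ end. Promoter medians were 19.2, 23.9, 40.3 and 33.9 normalised tags in the same order of libraries. Peak width was compared over the 8575 members and 4504 promoters with exactly 1 peak in each library. The median width of members was 383 and 471 bp in the controls and 547 and 553 bp under tazemetostat. Promoters measured 481, 588, 691 and 679 bp. Per kb of peak the 2 kinds were close: medians were 35.9, 36.7, 53.2 and 46.6 normalised tags for members and 37.1, 38.2, 56.6 and 48.1 for promoters. The shortest width the caller reports for most peaks, 300 bp, was found in 32.6% and 15.5% of members in the controls but in 6.54% and 5.01% under tazemetostat. Over the local background, in contrast, members stood higher than promoters: their median local fold was 7.46, 6.62, 7.74 and 6.71, and that of promoters 6.66, 5.71, 6.10 and 5.57. Members held 1.68% and 1.94% of all mapped tags in the controls and 3.09% and 2.75% under tazemetostat.

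**Figure D1:**
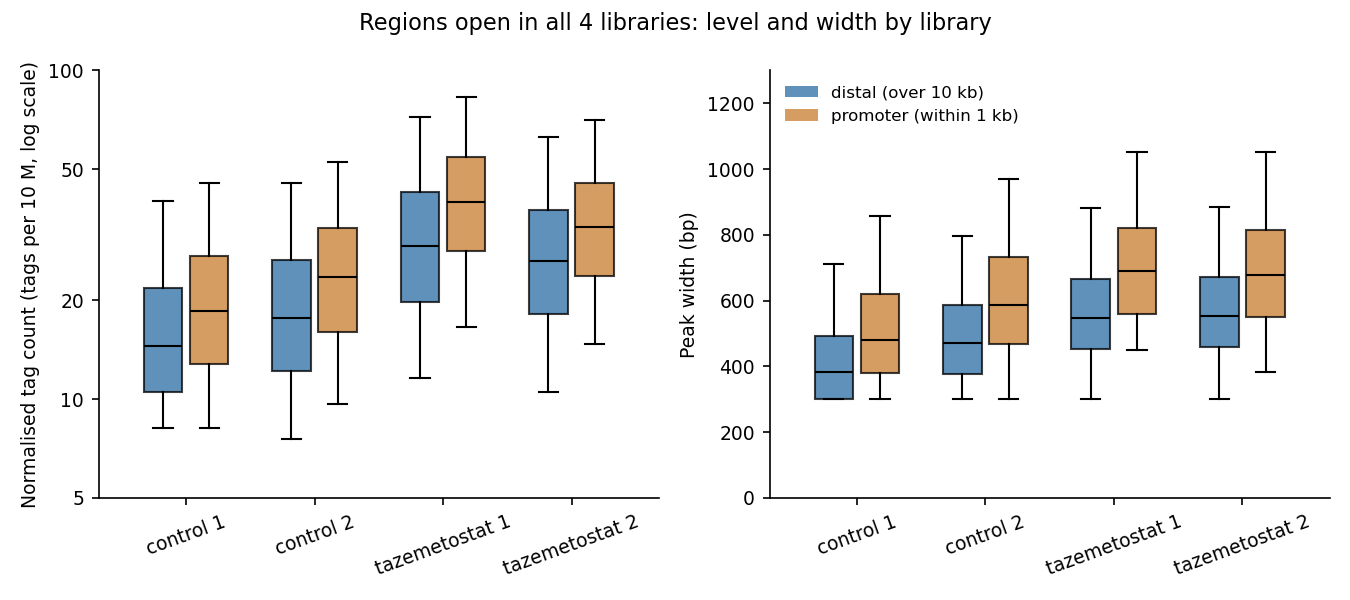
Normalised tag count per 10 M mapped tags (left, log axis) and peak width in bp (right) in each of the 4 libraries, for the 8575 distal and 4504 promoter regions with 1 peak per library. Boxes span the quartiles, lines mark medians and whiskers the 5th and 95th percentiles over regions; in each library the distal boxes sit below the promoter boxes, and both kinds are higher and wider in the tazemetostat libraries.

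At the distance limit of 10 kb, levels inside and outside were alike. The closest members inside it had 11.6, 20.6, 36.8 and 25.2 normalised tags near SLC9B2, at 10003 bp, and 43, 40.8, 67 and 61.7 near BMF, at 10005 bp. Just outside it, the region near LASP1NB at 9999 bp had 37.8, 39.5, 55.4 and 52.3, and that near EXOC6B at 9987 bp had 8.73, 8.82, 10.1 and 9.41. The 359 members at 10 to 12 kb had medians of 16.3, 19.7, 31.7 and 28.6, and the 394 regions at 8 to 10 kb had 15.7, 18.1, 29.95 and 25.6. High and low values occurred on both sides.

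To compare tazemetostat with control, limma was fitted to log2(normalised tag count + 1) over all 15383 regions with 1 peak per library, 8575 of them members. Of these members, 3708 rose and 34 fell at an adjusted p of 0.05, with a median log2 change of 0.70. Over all regions tested, 42.7% rose and 0.247% fell, with a median of 0.70, so members rose about as often as any region. Promoters had 1994 rises and 0 falls of 4504, with a median of 0.73 (limma gave 0 lower at an unadjusted p under 0.05, and edgeR with TMM factors and DESeq2 also called 0 falls, with 142 and 34 lower unadjusted). Both tazemetostat values lay above both control values in 80.3% of members against 81.6% of all regions, and below them in 2.50% against 1.75%.

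The rise was a shift of nearly the whole set, and how it was called depended on the scaling. When edgeR was run on whole tags with TMM factors, which set the typical region to no change, 13 members rose and 144 fell, with a median of 0.0050. Over all regions, 0.15% rose and 1.13% fell in that fit. When each library was centred on its own median, limma called 0 members, while 263 were higher and 819 lower by unadjusted p-values under 0.05. DESeq2 called 2 rises and 87 falls. Of the 34 falls in limma, 32 also fell in edgeR with TMM factors, and all 13 rises there had risen in limma. The peak caller worked with a fragment length of 200 bp in the control files but 144 bp in the tazemetostat files, and the effect of that difference and of the drug cannot be told apart. Leaving out either tazemetostat library left 0 calls in limma; by unadjusted p-values under 0.05, 1949 members were then higher and 35 lower without replicate 1, and 3253 and 29 without replicate 2.

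The level of members relative to promoters within a library does not depend on the scaling of that library. The median log2 level of members minus that of promoters was -0.34 and -0.40 in the controls and -0.43 and -0.33 under tazemetostat. The groups overlapped, with means of -0.37 ± 0.042 and -0.38 ± 0.072 (SD, n = 2) and p = 1 in the exact permutation test, two-sided. Per kb of peak the difference was smaller, at -0.05 and -0.06 in the controls and -0.09 and -0.04 under tazemetostat. Measured by local fold instead, members stood above promoters by 0.16 and 0.21 in the controls and by 0.34 and 0.27 under tazemetostat on the log2 scale. These groups did not overlap, with a difference of 0.12 and p = 0.3333 in the same exact permutation test.

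Within the set, the change depended on sequence. Members were classed by the share of 32-base words of their central 200 bp that occur elsewhere on chromosomes 1 to 22, X and Y; 831 of 8952 (9.28%) had at least 50% of such repeated words, against 1.87% of promoters. Among members tested, 764 with repeated sequence had a median log2 change of 0.47, and the 7811 others had 0.72. Of the repeated members 207 (27.1%) rose and 21 (2.75%) fell in limma, whereas 3501 (44.8%) of the others rose and 13 (0.166%) fell. In edgeR with TMM factors, 102 of the 144 falling members were repeated. The median level of repeated members minus the others was 0.21 and 0.10 in the controls but -0.15 and -0.10 under tazemetostat, a difference of -0.28 on the log2 scale that separated the groups (p = 0.3333, exact permutation test, two-sided). How the authors handled reads that align to several places is not given in the sources used here, and its part in these values was not tested.

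A small group shared sequence with the mitochondrial genome, whose DNA is abundant and free of nucleosomes, and of which old copies lie in the nuclear chromosomes. At least 5% of the 20-base words in 25 members occurred in mitochondrial DNA, a class drawn up after the values were seen; 1 promoter met the same criterion. The strongest lay near RNF141 (chr11:10509051-10509964), 1181 bp from MIR4485, and had 219.9 and 176.9 normalised tags in the controls, and 210.6 and 121.6 with the drug. That near IRS2 (chr13:109423957-109424535) had 129.1, 106.7, 123.5 and 76. A member near PCBD2 (chr5:134926862-134927421) had 88.4, 66.4, 92.2 and 43.3 beside the annotated mitochondrial pseudogene MTND5P11. All 25 had fewer normalised tags in tazemetostat replicate 2 than in tazemetostat replicate 1 and in control replicate 2. Their log2 changes ran from -0.76 to -0.02 with a median of -0.27, and 0 passed the threshold in limma (1 lower at an unadjusted p under 0.05). In edgeR with TMM factors 5 fell, and in DESeq2 3. The ratio of tazemetostat replicate 2 to replicate 1 had a median of 0.540 and ranged from 0.399 to 0.675. Over the 7781 members with none of the special sequences described here, that ratio was 0.892 at the median.

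Another 48 members held at least 5 copies of GGAAT or its complement in their central 200 bp, as satellite DNA near centromeres does; 0 of the promoters did. The class was likewise drawn up after the values were seen. Their median normalised tag counts were 36.4 and 34.9 in the controls and 35.3 and 33.9 under tazemetostat, nearly equal in the 4 libraries. Among the 41 tested, the median log2 change was -0.14, 1 rose and 1 fell in limma, and 14 fell in edgeR with TMM factors. Leaving out members with repeated, mitochondrial or GGAAT sequence left 7781, of which 3500 rose and 12 fell in limma, with a median of 0.72.

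**Figure D2:**
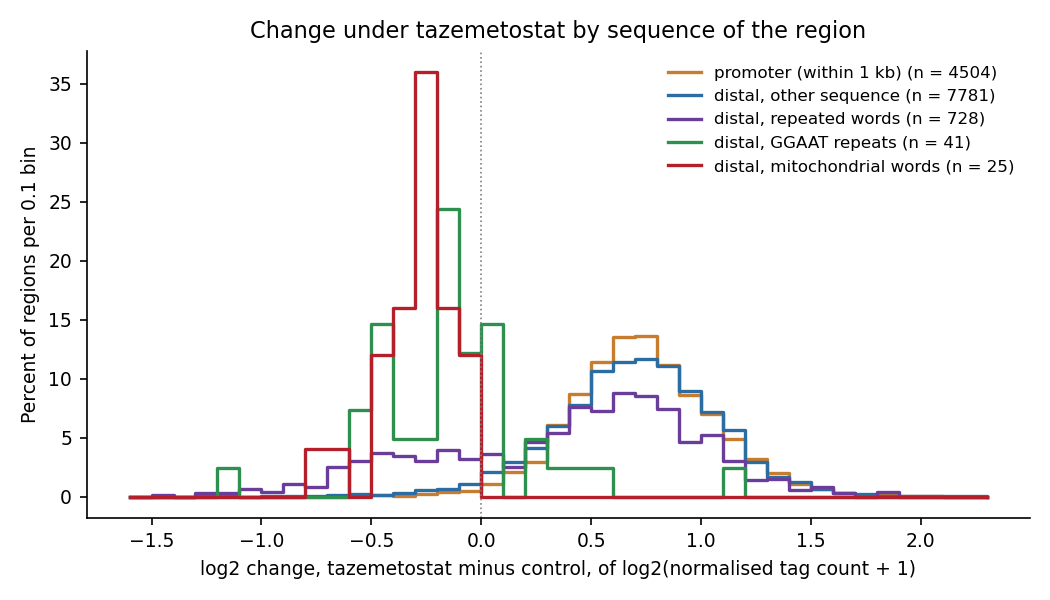
Distribution of the log2 change (x axis, tazemetostat minus control on the log2(normalised tag count + 1) scale) as the percent of regions in each bin of 0.1 (y axis), for 4504 promoters and for distal members split by sequence. Promoters and distal members of other sequence peak together near 0.7, members with repeated words spread from there to below 0, and members with GGAAT repeats or mitochondrial words centre below 0.

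The strongest members came largely from such sequence. Of the 100 members with the highest mean tag count, 50 had repeated, mitochondrial or GGAAT sequence, against 9.66% of all members. The highest of all (chr5:49599428-49601005, 843032 bp from EMB) had 322.8, 281.9, 256 and 244.3 normalised tags. Next came the GGAAT-rich member shown above (chr16:34582724-34583776) with 256.5, 231.5, 244.9 and 195, and a member at the start of the sequence of chromosome 5 (chr5:10062-11911) with 247.8, 221.8, 204.6 and 166.1. In each of these 3 the 2 tazemetostat values did not exceed the higher control value. The member near FAM72B (chr1:125179890-125180579) had 204.8, 159.7, 190 and 151.7. Inside CCDC200, a member 39970 bp from the TMEM106A 5′ end and 214 bp from a U2 small nuclear RNA gene (chr17:43251435-43252175) had 135.5, 150.8, 188.5 and 152.8, and was the only one of the 6 strongest (the fourth being that near RNF141) in which both tazemetostat values were above both controls. None of these 6 passed the threshold in limma: those near EMB, RNF141, FAM72B and TMEM106A (the nearest gene of the CCDC200 member) had adjusted p-values of 0.41, 0.40, 0.79 and 0.46, and the other two, with several peaks in a library, 0.64 and 0.31 with their tags summed. In edgeR with TMM factors those near EMB, RNF141 and FAM72B fell, by 1.00, 1.01 and 0.83 on the log2 scale. The change of that near TMEM106A was 0.25 in limma but -0.47 with TMM factors, without passing in either.

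The largest rises lay in sequence without repeated words, as did 78.9% of all members tested. The member nearest to SLC1A4, a neutral amino acid transporter gene, lies in a long noncoding RNA intron (chr2:64922525-64923503). It had 9.89 and 17.2 normalised tags in the controls (17 and 41 tags) and 68.5 and 61 with the drug, a log2 change of 2.22 ± 0.31 (SE, limma adjusted p = 0.0019). The intergenic member 45508 bp from AXIN2, a feedback inhibitor of Wnt signalling (chr17:65515683-65516597), had 11.6, 11.8, 71.6 and 42.2, a change of 2.14 ± 0.31 (limma adjusted p = 0.0019). Inside VAV3, a signalling gene, a member (chr1:107680581-107681648) had 7.56, 18.5, 63 and 45.9. Inside ARHGEF33 (chr2:38922239-38922960), the values were 7.56, 8.4, 41.3 and 32. In each of these 4 the groups did not overlap. All 4 also rose in edgeR with TMM factors, by 1.51 near SLC1A4, 1.54 near AXIN2, 1.29 in VAV3 and 1.47 in ARHGEF33 on the log2 scale, as did the member near AKIRIN2 (chr6:87772571-87773452; 8.73, 7.14, 37.3 and 33.1 normalised tags) by 1.45. In DESeq2 the adjusted p was 0.0096 near SLC1A4 and 0.022 near AXIN2 but 0.11 in VAV3, 0.12 in ARHGEF33 and 0.17 near AKIRIN2. Per kb of peak, all 5 still rose in limma, by 0.80 near SLC1A4, 1.19 near AXIN2, 1.08 in VAV3, 1.00 in ARHGEF33 and 0.60 near AKIRIN2. The 13 members that rose with TMM factors had medians of 9.31 and 11.8 in the controls, against lowest values of 6.4 and 5.46 over all members, and of 46.4 and 44 under tazemetostat.

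A second member lay 26827 bp from the AXIN2 5′ end (chr17:65588078-65588873), in an intron of a coding gene. It had 26.8, 22.3, 63.5 and 52.7 normalised tags and rose by 1.21 ± 0.30 (limma adjusted p = 0.011). It did not pass in edgeR with TMM factors, at 0.54 and an adjusted p of 0.36. The last, 95146 bp away, had 17.5, 11.3, 16.6 and 16.6 with overlapping groups and a change of 0.22 ± 0.31 (limma adjusted p = 0.51). The 2 members nearer to the gene rose in limma, where 42.7% of all regions did. So few members cannot show a pattern by distance. These neighbours were looked up after the values of the first were seen.

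The largest falls lay in repetitive sequence. The member nearest to MARCHF5 had 28.5 and 22.7 normalised tags in the controls (49 and 54 tags) and 9.57 and 8.28 with the drug (19 and 22 tags), a log2 change of -1.42 ± 0.30 (limma adjusted p = 0.0065). In its central 200 bp, 100% of the 32-base words were repeated and GC content was 86%. The member near DYNC2I1 (chr7:158998222-158999018) had 39, 31.9, 12.6 and 15.1, with 45.6% of words repeated. Inside ZNF131 (chr5:43087237-43088144) the values were 12.2, 23.9, 7.05 and 6.02, with 100% repeated, and near OR11H1 (chr22:10783885-10784648) they were 21.5, 22.7, 8.57 and 9.03, with 81.1% repeated. In all 4 the groups did not overlap, and all 4 also fell in edgeR with TMM factors and in DESeq2. Per kb of peak, the members near MARCHF5 (-0.31, limma adjusted p = 0.23) and OR11H1 (-0.38, limma adjusted p = 0.15) no longer passed, whereas those near DYNC2I1 (-0.89, limma adjusted p = 0.0021) and in ZNF131 (-0.57, limma adjusted p = 0.035) did.

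The 34 falling members as a group differed in sequence and position from the rest. Their median GC content was 60.3%, against 47.5% for the 3708 rising members and 49.5% for all members tested. Within 1 Mb of a chromosome end lay 8 of 34 (23.5%), against 196 of 8575 (2.29%) members tested. A CTCF, HNF4, CEBP, AP-1, FOXA or GATA match was present in 2 of 34 (5.88%), against 46.4% of rising members and 43.5% of all members tested. Their peaks measured 559 and 590 bp at the median in the controls and 376 and 379 bp under tazemetostat.

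**Figure D3:**
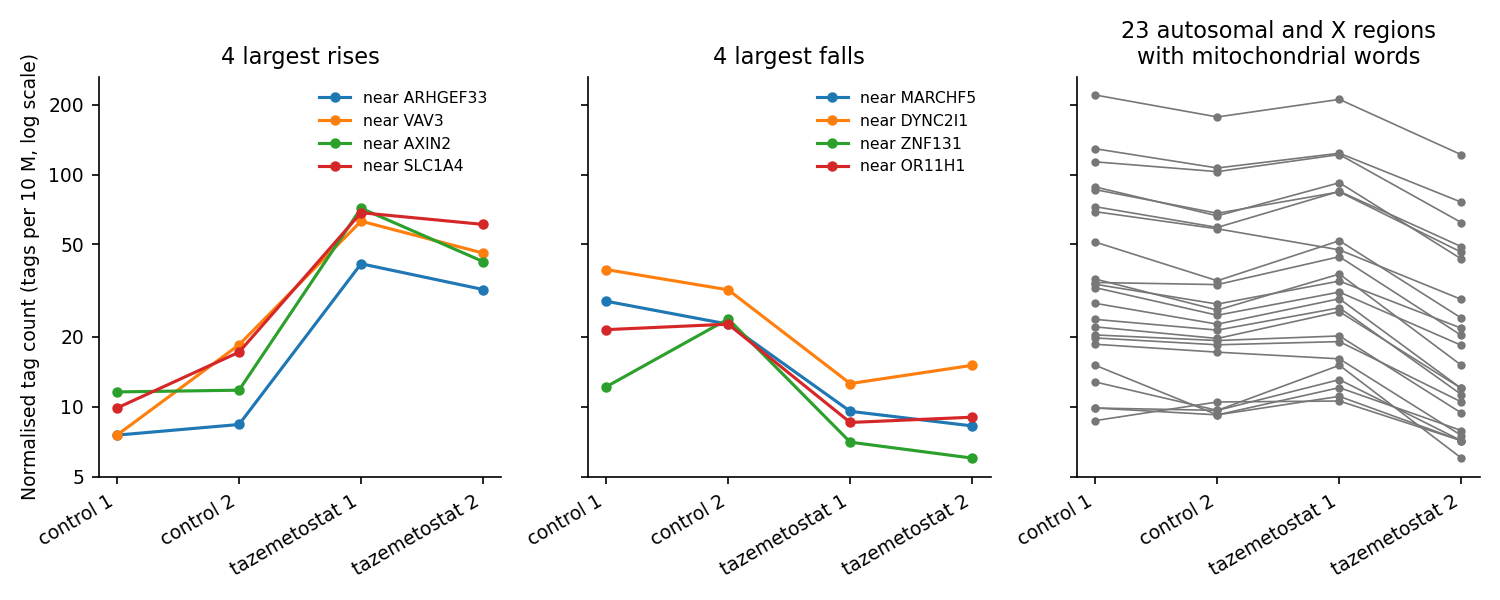
Normalised tag count per 10 M mapped tags (log axis) in each of the 4 libraries for the 4 largest rises, the 4 largest falls and 23 autosomal or X-linked members with mitochondrial words. Each line joins the values of 1 region and implies no order of libraries; the rises and falls separate the groups, whereas the lines with mitochondrial words are lowest in tazemetostat replicate 2.

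To see where members lie in genes, their centres were annotated with GENCODE release 44. Introns of coding genes held 4326 (48.3%), intergenic DNA 2693 (30.1%), introns of long noncoding RNA genes 1003 (11.2%) and exons 930 (10.4%). The median distance to the nearest coding gene 5′ end was 48989 bp, with quartiles of 24492 and 105950 bp. Although all members are far from the annotated start of a coding gene, 909 (10.2%) lay within 1 kb of an alternative start of a coding transcript and 716 (8.0%) within 1 kb of a start of a long noncoding RNA. Some annotated transcript start of any kind was within 1 kb of 1681 members (18.8%). These had a median GC content of 57.5% and a median CpG observed-to-expected ratio of 0.480, between the 48.5% and 0.206 of the other members and the 66% and 0.840 of promoters. They were stronger, with a median mean tag count of 25.6.

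Change differed little by place. The median log2 change was 0.68 in introns of coding genes, 0.69 in exons, 0.71 in intergenic DNA and 0.77 in introns of long noncoding RNAs. Rises made up 52.3% of the 962 members tested in long noncoding RNA introns and 40.5% of the 4182 in coding introns, against 42.7% of all regions. By distance from the gene 5′ end, the median lay between 0.68 and 0.75 up to 500 kb. It was 0.66 in the 302 members beyond that, of which 37.1% had repeated sequence.

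Members with the lowest mean over the 4 libraries had the smallest change. In 5 bins of equal size by mean normalised tag count, the bin from 6.94 to 14.5 had a median log2 change of 0.43, and the others had 0.71, 0.79, 0.79 and 0.72. The bins rest on a mean that includes the tazemetostat values, so they are not independent of the change. Every member also had to pass the peak threshold in both controls, which limits how far a member of the lowest bin could rise. The part of that selection in the lowest bin was not tested.

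To describe the sequence content of the members, consensus sequences were searched on both strands in the central 200 bp. For TEAD factors the letters searched were GGAATG. For CEBP proteins they were TTGCNNAA. For AP-1, the dimer of JUN and FOS proteins, they were TGANTCA. For GATA factors they were AGATAA. For the FOXA pioneer factors they were TGTTTAC. For HNF4 they were CAAAGTNCA. For SP/KLF factors they were GGGGCGGGG. For ETS factors they were CCGGAAGT. For ATF factors they were TGACGTCA. The longer CTCF and NFkB motifs were searched as well. The TEAD motif overlaps the GGAAT satellite unit, and 40 of the 48 GGAAT-rich members match it. Liver and enhancer motifs were more frequent in members than in promoters, and GC-rich promoter motifs less frequent. HNF4 matched 5.15% of members (95% Wilson interval 4.71 to 5.63) against 0.595% of promoters and 0.933% of 29370 genome windows of the same length. FOXA matched 9.82% (9.22 to 10.5) against 1.49% and 3.05%. AP-1 matched 11.7% (11.02 to 12.4) against 2.34% and 5.96%.

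CEBP and GATA matches were not far from the genome level. CEBP matched 12.3% of members (11.7 to 13.04) and 10.9% of genome windows, and GATA 11.5% (10.9 to 12.2) and 14.5%. TEAD matched 15.4% of members, 15% without the GGAAT-rich ones, and 11% of windows. SP/KLF matched 2.29% of members (2.00 to 2.62) and 17.0% of promoters, and ETS 0.570% and 6.43%. CTCF matched 2.99% of members (2.66 to 3.37), 1.25% of promoters and 0.368% of windows. Among the 7927 distal regions with a peak in both tazemetostat libraries and in no control it matched 6.90% (6.36 to 7.48), an interval that does not meet that of the members. HNF4 did not differ in this way, at 5.12% of those regions. Those regions were weaker than members, with a median mean tag count over the libraries with a peak of 10.3 against 22.4 in intergenic DNA. In coding introns it was 10.065 against 21.65. Among members tested, CTCF matched 111 of 1716 in the lowest bin of tag count and 19 of 1715 in the highest. The part of tag count in the CTCF difference between the sets was not tested. The intervals cover counting error only. Of the 8952 members, 5134 (57.4%) had no match to CTCF, HNF4, CEBP, AP-1, FOXA or GATA, and 855 (9.55%) had 2 or more.

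**Figure D4:**
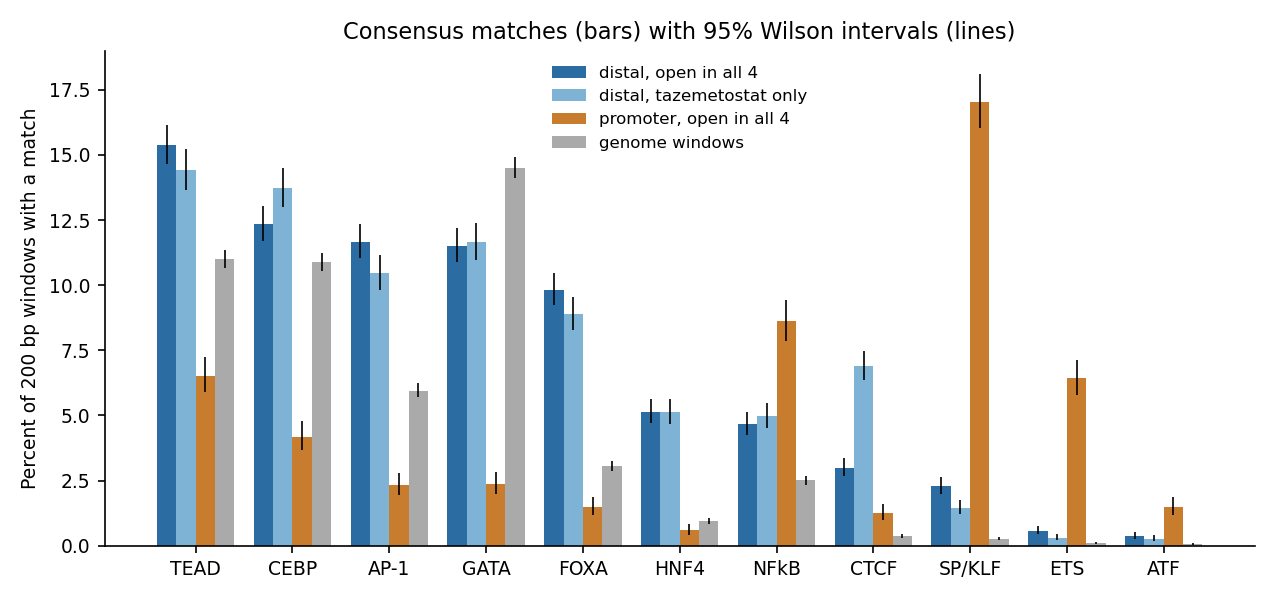
Percent of 200 bp windows with a consensus match (y axis) for 11 motifs (x axis) in 8952 distal members, 7927 tazemetostat-only distal regions, 5038 promoters and 29370 genome windows; lines are 95% Wilson intervals. HNF4, FOXA and AP-1 stand highest in the distal sets, SP/KLF and ETS in promoters, and CTCF in the tazemetostat-only distal set.

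Members with a CTCF match were weaker and rose less than the rest. Their median mean tag count was 15.9 against 22.2 in members without a match. Of 265 tested, 58 (21.9%, against 43.9% of members without a match and 42.7% of all regions) rose and 0 fell in limma, edgeR with TMM factors or DESeq2 (0, 19 and 1 lower at an unadjusted p under 0.05), and the median log2 change was 0.49 against 0.71. Within a library, their median log2 level minus that of the other members was -0.30 and -0.32 in the controls and -0.57 and -0.50 under tazemetostat. This difference of -0.22 separated the groups and is free of library scaling, with p = 0.3333 in the exact permutation test, two-sided. Without repeated sequence it was -0.25. Because weak members changed less, the comparison was repeated within the 5 bins of tag count: the median was lower with a CTCF match in each, at 0.36 against 0.44 in the lowest bin, 0.53 against 0.72, 0.65 against 0.80, 0.69 against 0.79 and, in the highest, 0.70 against 0.72, from 111, 65, 47, 23 and 19 members. The bins rest on the mean of all 4 libraries, tazemetostat included, so members of the same bin need not have had equal control levels.

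Matches to HNF4, CEBP and GATA went the other way by a smaller amount. The 456 tested members with an HNF4 match had a median log2 change of 0.77 against 0.70, and 50.7% rose against 42.8% of members without one. Relative to the other members their level was -0.05 and -0.03 in the controls and 0.00 and 0.02 under tazemetostat. Those with a CEBP match (1081) had 0.77 against 0.69 and 52.6% rose against 41.9%. Those with a GATA match (1008) had 0.76 against 0.69 and 51.0% rose against 42.2%, where 42.7% of all regions rose. The difference within a library was 0.05 for HNF4, 0.10 for CEBP and 0.07 for GATA, or 0.05, 0.07 and 0.04 without repeated sequence, each with p = 0.3333 in the exact permutation test, two-sided. For AP-1 (1021 members) it was 0.01 with overlapping groups and p = 1 in the exact permutation test. Other motifs also separated the groups: the difference was -0.18 for ETS (51 members), 0.12 for ATF (33), -0.087 for NFkB (405), 0.043 for FOXA (862) and -0.024 for TEAD (1327), each with p = 0.3333 in the exact permutation test. For SP/KLF (191) it was 0.018 with p = 0.6667 in that exact permutation test. In total, 11 motifs were compared in this way, and no p-value could pass a threshold of 0.05 with 2 libraries a group. Members in long noncoding RNA introns, classed without regard to motifs, had similar values, with a median of 0.77 and 52.3% rising. Rising members also had a median GC content of 47.5%, against 49.5% for all members tested. The part of place and of GC content in the motif differences was not tested.

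Single members with these motifs show the levels involved. The CTCF-bearing member near VEGFA, in an intron of a long noncoding RNA (chr6:43926769-43927577), had 40.1, 48.3, 94.7 and 73.8 normalised tags and rose by 0.91 ± 0.30 (limma adjusted p = 0.026). That in CROCC (chr1:16749896-16750981) had 61.7, 71.8, 97.3 and 83.6, with 100% of words repeated. The strongest members with HNF4 lay near ZKSCAN1 (chr7:100003587-100004396), at 75, 68.5, 112.9 and 99, and in SUPT6H (chr17:28698070-28698964), at 73.9, 58, 105.8 and 85.1. Neither passed the threshold, with adjusted p-values of 0.11 and 0.13 in limma. The changes of the members near ZKSCAN1 and in SUPT6H, and of that in CROCC, were above 0 in limma but -0.16, -0.18 and -0.28 in edgeR with TMM factors, again without passing. The strongest member with a CEBP match was that near RNF141 with mitochondrial words, described above, whose change was -0.30 ± 0.32 (limma adjusted p = 0.40). The other CEBP-bearing member, near HNMT, had 61.7, 78.6, 143.1 and 124.2 and rose by 0.93 ± 0.30 (limma adjusted p = 0.024). The AP-1-bearing member near ACTR3 (chr2:113977507-113978708) had 97.7, 84.9, 185.4 and 146.1 and rose by 0.85 ± 0.30 (limma adjusted p = 0.032), which became 0.46 per kb of peak (limma adjusted p = 0.083). A member near NID1 (chr1:236096917-236097644) held 6 AP-1 matches in a tandem repeat, with 137.3, 114.7, 133.5 and 115.9 and overlapping groups. None of these except the RNF141 and NID1 members changed in edgeR with TMM factors, where they fell by 1.01 and 0.74 on the log2 scale.

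Along the genome, members averaged 3.05 per Mb of sequence. Density was highest on chromosomes 17 (5.29 per Mb), 20 (5.21) and 22 (4.78) and lowest, among autosomes, on chromosome 4 (1.67), and it was 0.575 on the X chromosome. Chromosome 2 held the most members, 989. Relative to coding genes the order changed: chromosome 2 had 79.3 members per 100 coding genes and chromosome 10 had 76.8, whereas gene-dense chromosome 19 had 13.2. On chromosome 19 only 30.8% of regions called in all 4 libraries were distal by the rule. Leaving out chromosome Y, with 15 members tested, the median log2 change lay between 0.58 on chromosome 19 and 0.79 on the X chromosome. It was also low on chromosomes 22 (0.59), 21 (0.61) and 17 (0.62), where 15.5%, 29.2% and 12.3% of members had repeated sequence. Copy number was not analysed here.

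**Figure D5:**
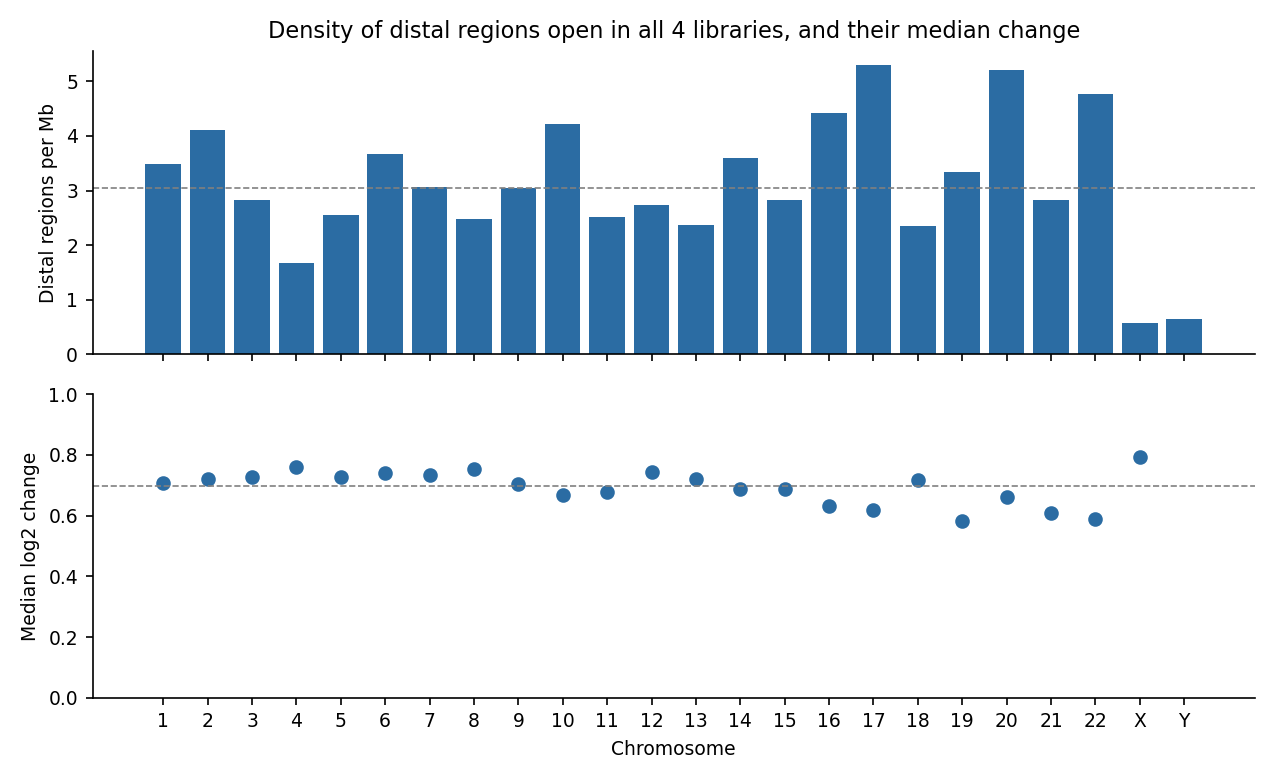
Members per Mb of sequence (top) and their median log2 change (bottom, chromosome Y not shown) by chromosome; dashed lines mark 3.05 per Mb and 0.70 over all members. Chromosomes 17, 20 and 22 have the highest density, X and Y the lowest, and medians fall between 0.58 and 0.79.

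At least 1 member lay in 2064 of 3102 windows of 1 Mb, and 204 windows with 10 or more held 28.4% of the members. The fullest window was chr17:43000001-44000000 with 31 members, 12 of them repeated, with CCDC200 nearest to 8 and DHX8 to 6. Next were chr6:167000001-168000000 with 25, nearest to TTLL2, AFDN and UNC93A, and chr17:72000001-73000000 with 24, of which SOX9 was the nearest gene for 15 and SLC39A11 for 9. The windows chr2:111000001-112000000 (21 members, nearest to BCL2L11 and MERTK among others) and chr2:42000001-43000000 (19, EML4 among others) followed. Repeated sequence was found in 9 of the 21 members of the BCL2L11 window and in 0 of the 24 of the SOX9 window.

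Most members stood alone. When neighbours were joined at the distance commonly used to stitch enhancers, 6448 (72.0%) had no neighbour, 877 groups held 2, and 225 groups of 3 or more held 750 members (8.38%). No group exceeded 5. Members in groups of 3 or more had a median log2 change of 0.67, and single members 0.70. Of the 5 groups of 5 with the highest summed tag count, the first lay in GGAAT-type DNA near ENSG00000284209 (chr16:34573804-34593088) and summed to 639.8 and 528.1 normalised tags in the controls and 590.6 and 491.6 under tazemetostat. The second lay in CCDC200 (chr17:43266430-43284381), where each of the 5 members was 135 to 232 bp from an annotated U2 small nuclear RNA gene, part of a tandem array, and all 5 were repeated. It summed to 350.7, 297.9, 554.3 and 435.2.

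The other 3 groups of 5 held 0 repeated members and were higher in both tazemetostat libraries. That downstream of SOX9, a transcription factor of bile duct and progenitor cells (chr17:72399420-72423338), summed to 201.2, 206.9, 340.7 and 311, and 3 of 5 rose in limma. That in EGLN3, an oxygen-sensing hydroxylase gene (chr14:34023785-34060601), summed to 115.2, 143.7, 233.8 and 223.9, and 2 of 5 rose. That near TOMM20, a gene of the mitochondrial import receptor (chr1:234957321-234997963), summed to 134.9, 142.4, 227.3 and 210.8, and 1 of 5 rose, where 42.7% of all regions tested rose.

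The nearest coding gene was counted for each member. The 8952 members had 4850 different nearest genes, 24.2% of the 20033 coding genes, and 2918 of these genes were nearest to a single member. TPTE came first with 32 members up to 5191914 bp away on chromosome 21, 26 of them repeated. WSB1 had 16, 13 of them repeated, with a median log2 change of -0.12, and DEFB115 had 14, up to 2654932 bp away. Where coding genes are far apart, the nearest gene is thus only a label of position.

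The other genes in this ranking lay among members of mostly unique sequence and included regulators of growth and adhesion. TNS3, a focal adhesion gene, had 16 members with a summed normalised tag count of 381 and 464.3 in the controls and 724.9 and 658.6 under tazemetostat, and 6 of 14 tested rose in limma, where 42.7% of all regions did. SOX9 had 15 members, 28072 to 471833 bp away, with sums of 395.5, 433.8, 732.1 and 643.4, and 7 of 15 rose. TCF7L2, a transcription factor of the Wnt pathway, had 14, of which 5 rose, with a median log2 change of 0.62. TBX3, a T-box repressor, had 13, of which 7 rose, with a median of 0.76. LPP, a LIM-domain adhesion gene, had 13 members with sums of 208.9, 239.5, 484.3 and 427.8. Of these, 11 rose, and the median of 0.99 was the highest among these genes. AOPEP (13 members), LRMDA (13) and RAB4A (13) had 6 of 13, 5 of 12 and 2 of 11 rising. No member near these 8 genes passed the limma threshold downwards.

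To relate members to liver biology, gene lists were examined for members within 100 kb of the gene 5′ end. Of all 20033 coding genes, 46.3% had one. Among hepatocyte transcription factors it was 19 of 24 (79.2%), among liver cancer and growth genes 23 of 26 (88.5%), among sulfur amino acid and ferroptosis genes 15 of 20 (75%) and among plasma protein genes 23 of 32 (71.9%). Sterol and lipid genes and AP-1 and stress response genes each had 17 of 24 (70.8%). Glucose metabolism genes had 10 of 18 (55.6%) and genes of other cell types 13 of 22 (59.1%). Developmental genes typically silenced by polycomb were at the other end, with 5 of 25 (20%) and 0.24 members per gene against 0.84 over all coding genes. The lists are short and were chosen with earlier results of these data known, so these counts are a description.

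In each list except genes of other cell types, the median change of members lay below the 0.70 of all members. Among tested members near hepatocyte transcription factors, 18 of 47 rose in limma, with a median log2 change of 0.64. Near liver cancer and growth genes it was 21 of 56 with a median of 0.68, near plasma protein genes 11 of 36 with 0.59, and near sterol and lipid genes 14 of 43 with 0.55. Near stress response genes 14 of 40 rose (0.64), near glucose metabolism genes 9 of 20 (0.66), near sulfur amino acid and ferroptosis genes 9 of 28 (0.67), near genes of other cell types 9 of 19 (0.73) and near polycomb-silenced genes 1 of 4 (0.48). Over all regions tested 42.7% rose. No member near a listed gene passed the limma threshold downwards.

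HNF4A, the master regulator of hepatocyte identity, had 6 members within 100 kb. The strongest lay in an intron 39029 bp from the gene 5′ end (chr20:44394320-44395137) and had 48.9, 68.9, 112.9 and 88.8 normalised tags, a rise of 0.78 ± 0.31 (limma adjusted p = 0.047). A member 15124 bp into the gene (chr20:44370425-44371222), which has a FOXA match, had 38.4, 44.5, 50.4 and 46.3, with a change of 0.22 ± 0.30 (limma adjusted p = 0.50). The next intronic member (chr20:44411066-44411707) had 48.3, 45.8, 81.1 and 73. Both tazemetostat values exceeded both controls in each of these 3, although by little in the second. Over all members tested the median log2 change was 0.70, and 42.7% of all regions rose in limma. In edgeR with TMM factors 13 of 8575 members rose. The rises given for listed genes here and in the next paragraphs are limma values without TMM scaling.

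FOXA2, a pioneer factor of liver chromatin, had 5 members, all at lower coordinates than its 5′ end. The strongest (chr20:22511887-22512998), in a long noncoding RNA intron 73013 bp away, had 44.2, 56.8, 93.2 and 87. A nearer one (chr20:22523625-22524494) had 11.6, 8.82, 41.3 and 36.5 and rose by 1.84 ± 0.30 (limma adjusted p = 0.0025). GATA4, another liver and endoderm factor, had 6 members with sums of 99.0, 114.2, 191.1 and 147.6. The groups did not overlap in any of these values.

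Metabolic, secretory and growth genes came next. CYP27A1, which oxidises the sterol side chain in bile acid synthesis, had 6 members, the strongest at chr2:218755214-218756321 with 72.7, 82.4, 121.4 and 101.6 and a change of 0.52 ± 0.30 (limma adjusted p = 0.14). ABCA1, the cholesterol exporter, had 5, the strongest with 29.1, 38.7, 58.5 and 61.4, which rose by 0.82 ± 0.30 (limma adjusted p = 0.036). FBP1, a gluconeogenic enzyme gene, had 3, the strongest with 30.2, 21, 71.6 and 66.6, which rose by 1.42 ± 0.30 (limma adjusted p = 0.0067). SLC2A2, the liver glucose transporter gene, had 4 and SALL4, an oncofetal factor, had 6. F10 had 5 and TTR 4, where the strongest member, in a coding gene intron 44536 bp away, had 29.1, 40.8, 67 and 57.6 and rose by 0.83 ± 0.30 (limma adjusted p = 0.036). The median change over all members tested was 0.70.

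Of the stress response genes, GADD45B had 5 and FOS 4, where the strongest, 19633 bp away, had 24.4, 32.4, 69 and 43.3 and rose by 0.93 ± 0.32 (limma adjusted p = 0.028), beside a median of 0.70 over all members tested. GCLC, the rate-limiting enzyme gene of glutathione synthesis, had 4, the strongest with 31.4, 26.9, 42.8 and 39.5 and a change of 0.49 ± 0.30 (limma adjusted p = 0.16). Near NKX2-5, a developmental gene of the polycomb list, 2 members were found, and the stronger had 27.9, 29.8, 42.8 and 27.1, with overlapping groups. CD14, a monocyte gene, had 4 members within 100 kb although its own 5′ end had no peak in 3 of the 4 libraries.

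BHMT and CDO1, the sulfur amino acid genes that the study examined, each had 1 member within 100 kb, neither of them nearest to the gene itself. The member 80715 bp from BHMT lay in an intron of DMGDH, which encodes the enzyme that acts after BHMT in choline breakdown (chr5:79030472-79031717). It had 7.56 and 15.5 normalised tags in the controls and 34.3 and 32.4 under tazemetostat and carried a CEBP match. Its control values rest on 13 and 37 tags. Because it had several peaks in 1 library it was tested with their tags summed, where it rose by 1.53 ± 0.33 (limma adjusted p = 0.0097). For the same reason it has no value in edgeR with TMM factors, in DESeq2 or after centring, so its change there was not tested. The member 68686 bp from CDO1, in an intron of AP3S1 (chr5:115885056-115885635), had 11.1, 15.5, 18.6 and 21.5, a change of 0.57 ± 0.30 (limma adjusted p = 0.11), with 55.6% of its words repeated. In edgeR with TMM factors its change was -0.12, also without passing.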

How the data were processed

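The members and gene lists were chosen with earlier results of these data known. The labels gave each library its group and number. The submitters' processing notes name Trim Galore 0.6.6, Bowtie2 2.3.5.1, HOMER 4.11.1 and the hg38 build, and the authors called each library on its own. The headers state a peak size of 300 bp, stitching of neighbouring peaks, a required local fold of 4 within 10 kb, a local Poisson limit of 0.0001 and a false discovery rate of 0.001, where the methods state another rate. As a signal, the deposited normalised tag count gives tags scaled to 10 M mapped tags. The peak score, as deposited, is a count of tags and served only to rank peaks. The deposited ratio column of fold over the local background was used, and the deposited p-value column was not. Where no peak was called there is no value.

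Peaks sharing 1 bp or more were merged, and the 78220 merged regions on chromosomes 1 to 22, X and Y were annotated with GENCODE release 44. Where a library had several peaks in a region, their tags were summed, and such regions were left out of the tests. limma 3.58.1 was fitted to log2(normalised tag count + 1), on which changes of low regions come out too small, over all 15383 regions with 1 peak per library, with Benjamini-Hochberg adjustment over all of them, and calls were made at 0.05. DESeq2 1.42.0 and the quasi-likelihood test of edgeR 4.0.16 used whole tags, recovered from the normalised tag count and the mapped tags within 0.133 of a whole number. On simulated counts for the 15383 regions with 200 changed 3-fold, limma recovered 96.5% with 5.39% false calls and edgeR 93% with 4.12%. The performance of limma and edgeR where nearly all regions shift, as in these libraries, was not tested. For library medians a two-sided exact permutation test was used. Words of 32 bases were compared with chromosomes 1 to 22, X and Y, and words of 20 bases with the mitochondrial genome.

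Named are the 6 strongest members, the 4 largest rises and falls in limma and in edgeR, the 5 largest groups and windows, the 10 most frequent nearest genes with ties, up to 3 genes per list, BHMT and CDO1, and the 2 strongest members per motif for CTCF, HNF4, CEBP and AP-1. Other named members were chosen after their values were seen.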

Additional observations from a re-analysis of the deposited data

Results flagged for a closer look

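Signal was also present outside the chromosomes analysed. The 356 regions called in all 4 libraries on unplaced contigs and alternate sequences had median normalised tag counts of 13.4 and 16 in the controls and 24.7 and 23.3 under tazemetostat, above the control level in both tazemetostat libraries. Their distance to genes was not defined, and they were not tested. With 2 libraries per group no sample could be set apart from its group by an outlier test.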

How the results depend on the processing

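The number of members moved from 8952 to 4420 with a limit of 50 kb, 1842 with a local fold of at least 8 and 4894 with the same number of peaks per library. With 1 library left out it ranged from 9166 to 14671, the highest without control replicate 1. Rises in limma (3708) became 1032 with a local fold of at least 8, 13 in edgeR with TMM factors, 2 in DESeq2 and 0 after centring, and ranged from 0 to 4615 with 1 library left out. Without control replicate 1 there were 1868 rises. Falls (34) became 21 at a mean tag count of at least 20, 5 with a local fold of at least 8, 144 in edgeR with TMM factors, 87 in DESeq2 and 0 after centring, and ranged from 0 to 62 with 1 library left out, the highest without control replicate 2. Over all regions, DESeq2 called 3 rises and 106 falls, and edgeR with TMM factors 23 and 174. Sequence classes were left out as an alternative chosen after seeing the data: falls became 13 without repeated sequence and 12 also without mitochondrial or GGAAT sequence. The median log2 change (0.70) became 0.41 per kb of peak, 0.0050 in edgeR with TMM factors, 0.0055 in DESeq2 and -0.061 after centring. With the replicate number as a block, 2855 members rose and 25 fell, and the distal minus promoter difference stayed at -0.02. Same-numbered libraries deviated with a correlation of -0.0025 over regions, so no pairing by number showed in the region levels. Whether same-numbered libraries were prepared together is not given in the sources used here. The distal minus promoter difference changed sign to 0.12 by local fold and ranged from -0.066 to 0.036 with 1 library left out, above 0 without control replicate 1 (0.014) and without tazemetostat replicate 1 (0.036).

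In the central 100 bp, CTCF matched 1.74%, HNF4 2.70%, CEBP 6.48% and AP-1 6.65% of members, and in the whole region 5.82%, 9.41%, 31.2% and 25.9%. Coding genes with a member were 27.4% within 50 kb and 73.0% within 250 kb. Of 290 values of 21 named members under the alternatives, 209 kept their direction and side of the threshold, 52 no longer passed it, 9 came to pass it and 20 changed sign without passing it before or after. After centring, in edgeR with TMM factors and in DESeq2, in that order, the changes became -0.51, -0.47 and -0.47 near TMEM106A, -0.33, -0.28 and -0.28 in CROCC, -0.21, -0.16 and -0.16 near ZKSCAN1, -0.23, -0.18 and -0.20 in SUPT6H (nearest gene PROCA1) and -0.19, -0.12 and -0.11 at the member near CDO1 (nearest gene ATG12). With 1 library left out the change ranged from -0.69 to 0.094 near RNF141, highest without tazemetostat replicate 2. It ranged from -0.27 to 0.088 near FAM72B and from -0.14 to 0.12 near NID1, where it was above 0 without control replicate 1 (0.088 and 0.12) and without tazemetostat replicate 2 (0.071 and 0.089). The cause of these differences was not tested, apart from the scaling itself. Under 20 tags lay behind 31.5% of members in control replicate 1, and the part of its depth in that was not tested.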
